A study of Mus musculus with 27 samples.

Results

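Losing MBNL1 and gaining MBNL1 were compared gene by gene in mouse heart ventricle, by subtracting the response to gain from the response to loss. The members are the 14 libraries that the 2 responses need, of 27 libraries in the series. The loss effect is the difference between 4 libraries labelled KO (numbers 6 to 9), an MBNL1 loss-of-function model at postnatal day 60 taken 14 days after knockout, and 3 libraries labelled Ctl (numbers 5 to 7) with the same age and interval. The gain effect is the difference between 4 libraries labelled Tg (numbers 1 to 4), an MBNL1 gain-of-function model at postnatal day 7, and 3 libraries labelled Ctl (numbers 1 to 3) of that age. The labels give the controls no genotype beyond Ctl. How the knockout was induced, which part of the gene it removes, what drives the transgene and whether animals were pooled are not given in the sources used here. Loss was measured only in adults and gain only in neonates, so the direction of the MBNL1 change and the age cannot be told apart. Whether the libraries within a group are separate animals is not labelled either. The p-values therefore reflect only how far these libraries vary, and part of that may be technical.

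MBNL1 (muscleblind-like 1) is an RNA-binding protein that moves alternative splicing in heart and skeletal muscle from its fetal to its adult pattern and also acts on the stability and place of messenger RNAs, in part through 3′ untranslated regions. Proteins of the CELF family oppose it on many exons. MBNL proteins are sequestered by expanded RNA repeats in myotonic dystrophy, a disease with cardiac conduction defects. The study's stated purpose was to see what a changed MBNL1 dose does to the maturity of the postnatal heart. A gene that follows the dose would move in opposite directions in the 2 models, and a gene that answers to either manipulation would move alike.

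The measurement was the number of reads per gene. Total counts ran from 21929347 to 24817135 in the 14 libraries. All 14 were fitted together with edgeR's quasi-likelihood test over 16445 genes, and a gene was called where the p-value adjusted by the Benjamini-Hochberg method was under 0.05. In this fit the log2 value of loss minus gain is exactly the log2 loss effect minus the log2 gain effect. Levels are CPM, counts scaled to a common library total, after scaling by trimmed mean of M-values (TMM) over the 14 libraries, and 3 counts, the most that an observed 0 leaves possible, correspond to 0.104 to 0.189 CPM with counting error alone. Changes in bulk tissue can come from fewer cells of a type or from less RNA per cell, and these cannot be told apart.

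MBNL proteins bind short RNA motifs with GC between pyrimidines. The 3′ untranslated regions of some leading genes of every class of response hold such motifs. For each of 8 genes, 1 stretch of 30 bases is written as RNA with each UGCU or CGCU in capitals. Each was picked as the stretch with the most motifs in its region, 2 or 3, so it is not typical of the region. Such stretches of other leading genes held from 4 motifs (Lgi1) down to 1 (Nppb and Gdf15). Nrg1, higher in both, held 0 in its whole region of 272 bases. They were read from the transcripts of GENCODE M21 on GRCm38, on the strand of the gene. Dstn, Tnni1 and Ncam1 were higher in KO and lower in Tg, Cdnf, Taf1a and Tuba8 were lower in KO and higher in Tg, Ccn2 was higher in both and Clcn1 was lower in both.
Dstn: ucagacucaugucUGCUuaaaauucaCGCU
Tnni1: ggcuUGCUguaugacacucugugucaUGCU
Ncam1: gaaauuuUGCUuuuguuuuuucauucUGCU
Cdnf: augaucaacccgUGCUuccucaugguCGCU
Taf1a: ggcucuguagcucaugUGCUgaugggUGCU
Tuba8: ccacucacagcaUGCUggguuccuagUGCU
Ccn2: uccgauuccuaccaggaagUGCUUGCUGCU
Clcn1: aUGCUuaaaggacucuuguguuuuccUGCU

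The stretches lie in 3′ untranslated exons at chr2:143942769-143942798 on the plus strand (Dstn), chr1:135810616-135810645 plus (Tnni1), chr9:49503735-49503764 minus (Ncam1), chr2:3524134-3524163 plus (Cdnf), chr1:183410007-183410036 plus (Taf1a), chr6:121226124-121226153 plus (Tuba8), chr10:24598535-24598564 plus (Ccn2) and chr6:42314380-42314409 plus (Clcn1). Over the 13404 genes with a 3′ untranslated region of at least 100 bases, the median density of UGCU and CGCU was 6.91 per kilobase. It was 6.90 per kilobase in 207 genes higher in KO and lower in Tg, 7.81 in 267 genes lower in KO and higher in Tg, 7.08 in 451 genes higher in both and 6.47 in 404 genes lower in both. The class with the highest density also had the highest median GC content of these regions, 47.4% against 44.8% over all genes, and the part of GC content in the difference was not tested. Tnni1, with 8 motifs in 379 bases, had a density of 21.1 per kilobase, and Ncam1, with 13 motifs in 3307 bases, had 3.93. A match of letters is a description and not a binding site.

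Mbnl1 itself responded far more to gain than to loss. In the KO libraries it stood at 138, 136, 116 and 122 CPM and in the day 60 controls at 171, 159 and 151 CPM. The Tg libraries held 4100, 2950, 3450 and 3530 CPM against 105, 97.4 and 98.3 CPM in the day 7 controls. Neither pair of groups overlapped. The log2 fold changes were -0.33 ± 0.10 (SE, adjusted p = 0.0094) for loss and 5.13 ± 0.12 (adjusted p = 2e-13) for gain in edgeR's quasi-likelihood test. Since the deleted part is not known here, reads outside it could still be counted, and the loss value was 0.03 when libraries were scaled by their total counts. The library labels of the KO group are thus not tested by this gene.

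Its relatives gave a mixed picture. Mbnl2, a paralog with overlapping targets, fell in the loss effect by 0.63 ± 0.10 on the log2 scale (SE, adjusted p = 4.7e-05, edgeR), from 326, 297 and 233 CPM in the controls to 202, 191, 164 and 178 CPM. Its gain value was -0.10 ± 0.10 (adjusted p = 0.53). Mbnl3, the paralog of embryonic tissue, was low throughout, at 0.332 to 1.05 CPM in KO and 0.163 to 0.441 CPM in its controls, and at 0.948 to 1.51 CPM in Tg and 1.42 to 2.65 CPM in its controls. Both comparisons overlapped, and its calls (log2 1.30, adjusted p = 0.033 for loss and -0.93, adjusted p = 0.047 for gain) were lost when any of several single libraries was left out. Of the antagonists, Celf1 had loss and gain values of 0.16 ± 0.07 and -0.20 ± 0.07, neither called (adjusted p = 0.067 and 0.069), and a loss minus gain value that was called (0.36 ± 0.10, adjusted p = 0.0089). Celf2 rose with the transgene, from 60.9 to 65.3 CPM in the controls to 75.5 to 81.3 CPM (log2 0.32 ± 0.09, adjusted p = 0.024), a call that ended without any single day 7 control. Its loss value was -0.10 ± 0.09 (adjusted p = 0.37).

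Esr1, which encodes estrogen receptor alpha, stood apart from all other genes. It measured 1700, 1860, 1970 and 1660 CPM in the KO libraries and 0.883 to 1.14 CPM in their controls, a log2 loss effect of 10.76 ± 0.22 (SE, adjusted p = 2.5e-14, edgeR). Tg libraries held 0.216 to 0.875 CPM and the day 7 controls 0.176 to 0.353 CPM. As background, inducible Cre transgenes carry the ligand-binding part of an estrogen receptor. The presence of such reads goes with the KO label in every library, so that any effect of what produces them and the effect of losing MBNL1 cannot be told apart.

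Opposite responses were the smaller share of the genes that answered both models. In all, 8182 genes (49.8%) were called in the loss effect, 4228 higher (25.7%) and 3954 lower (24.0%). The gain effect called 2428 genes (14.8%), 1265 higher (7.69%) and 1163 lower (7.07%). Of the 1487 genes called in both, 524 (3.19% of genes tested) moved in opposite directions, 216 higher in KO and lower in Tg (1.31%) and 308 lower in KO and higher in Tg (1.87%). The other 963 (5.86%) moved alike, 480 higher in both (2.92%) and 483 lower in both (2.94%). Of genes called lower in Tg, 18.6% were called higher in KO, beside 25.7% of all genes. Of genes called higher in Tg, 24.3% were called lower in KO, beside 24.0% of all genes. The opposite classes were thus near or under the share over all genes. The alike classes were 37.9% of genes higher in Tg and 41.5% of genes lower in Tg, beside 25.7% and 24.0%. The test of loss minus gain called 6349 genes (38.6%), 3152 higher (19.2%) and 3197 lower (19.4%). These included all 524 opposite genes, 133 of the 480 higher in both and 232 of the 483 lower in both. The opposite genes were chosen by the same values that this test subtracts, so their calls in it were largely fixed by that choice. Across all 16445 genes, which are not independent replicates, the loss and gain values had a Pearson correlation of 0.106 and a Spearman correlation of 0.104.

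**Figure D1:**
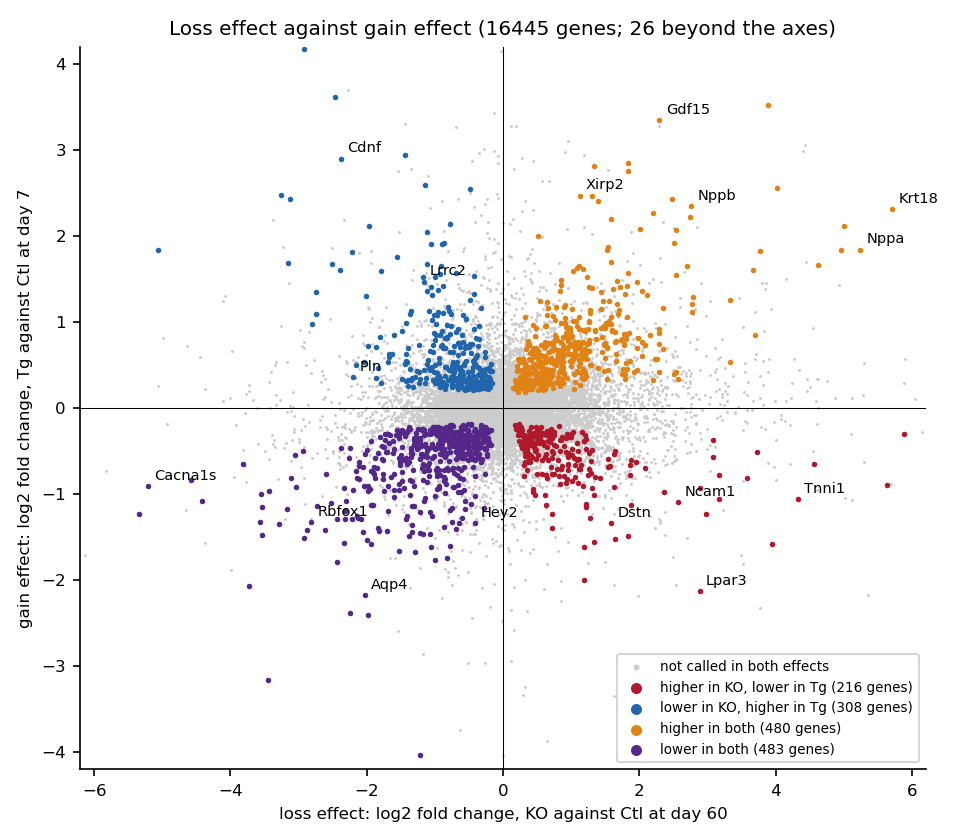
Each point is 1 of 16419 genes, with the log2 loss effect (KO against Ctl at postnatal day 60) on the horizontal axis and the log2 gain effect (Tg against Ctl at postnatal day 7) on the vertical axis; 26 of the 16445 genes lie beyond the axes. Coloured genes were called in both effects: 216 and 308 opposite, 480 and 483 alike.

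The balance of the loss effect rests on the scaling. TMM factors ran from 0.723 to 0.800 in the day 60 controls, from 0.911 to 0.991 in KO and from 1.133 to 1.170 at day 7. With total count scaling the median loss value over all genes moved from 0.02 to 0.39, the share of higher genes among loss calls from 51.7% to 81.4% and among loss minus gain calls from 49.6% to 82.6%, while in the gain effect it was 48.0% against 52.1%. The opposite classes then held 448 and 135 genes in place of 216 and 308, sharing 208 and 132 with them. Directions below, and levels compared between the ages, are relative to the choice of scaling. Under total count scaling 8 genes of the class lower in KO and higher in Tg and 3 of the class lower in both moved to another class. The classes are also sensitive to a single library: without KO library 8 the first opposite class held 380 genes, and without Ctl library 2 of day 7 the 4 classes held 103, 176, 269 and 307. Gain calls numbered 4878 with each age in a fit of its own, and 973 when all 27 libraries shared 1 fit, where the 4 classes held 62, 100, 176 and 153.

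Sizes were modest in all 4 classes. The median loss and gain values were 0.71 and -0.51 for genes higher in KO and lower in Tg, -0.71 and 0.46 for genes lower in KO and higher in Tg, 0.84 and 0.58 for genes higher in both, and -0.93 and -0.49 for genes lower in both. Both values reached 2-fold in 17, 32, 69 and 60 genes. The loss value was the larger in 69.9%, 62.3%, 70.8% and 76.8% of the classes, beside 71.4% of all genes. Libraries did not overlap in either comparison for 179, 266, 444 and 440 of the members, beside 17.9% of all genes. In the loss comparison alone 45.1% of all genes were free of overlap and in the gain comparison alone 36.6%. Since the classes were chosen by these values, the figures describe them and test nothing. At the edge of the threshold, Gldc (larger adjusted p = 0.0492) was just inside and Nrtn (0.0501) just outside the first class, with Fam174b (0.05) and Inpp5k (0.0509), Tesk1 (0.05) and Ctsb (0.0501), and Svil (0.0499) and Ccdc69 (0.0502) in the same places for the other 3.

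The 8 leading genes that were higher in KO and lower in Tg were Dstn, Grk3, Ncam1, Tnni1, Lpar3, Vash2, Fras1 and Slc17a7. Dstn encodes destrin, which severs and depolymerizes actin filaments. It stood at 355, 391, 342 and 329 CPM in KO against 122, 107 and 126 CPM in controls, and at 125, 136, 116 and 126 CPM in Tg against 311, 313 and 333 CPM in controls. With TMM scaling the adult KO libraries thus lay at and above the level of the neonatal controls, and the Tg libraries near that of the adult controls. These levels across ages were not tested, and the scaling factors differed between the ages. Loss and gain values were 1.59 ± 0.08 and -1.34 ± 0.08, and their difference was 2.93 ± 0.11 (SE, adjusted p = 1.1e-10, edgeR).

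Grk3, a kinase that turns off G protein-coupled receptors, was similar in shape. Its KO libraries held 31.8, 38.8, 38.4 and 26.4 CPM against 14.4, 13.1 and 14.6 CPM, and its Tg libraries 13.2, 13.1, 11.1 and 14.2 CPM against 31.1, 33.6 and 29.2 CPM, with no overlap in either comparison (log2 1.27 ± 0.13 and -1.28 ± 0.12). Ncam1, the neural cell adhesion molecule, stood at 31.4, 27.7, 36.2 and 30.4 CPM in KO against 5.14, 3.59 and 6.95 CPM, and at 30.6, 31.8, 25.7 and 27.8 CPM in Tg against 61.8, 62.1 and 61.2 CPM. With TMM scaling the 2 manipulated groups lay at overlapping levels, reached from opposite sides, with a loss minus gain value of 3.66 ± 0.20 (adjusted p = 4.9e-09, edgeR).

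Tnni1, the slow skeletal troponin I that the fetal heart uses before cardiac troponin I replaces it, measured 9.23, 14.5, 24.4 and 18.7 CPM in KO against 0.310, 0.504 and 1.57 CPM in controls. Tg libraries held 448, 429, 333 and 387 CPM against 889, 855 and 750 CPM. Values were 4.33 ± 0.40 (adjusted p = 2.2e-07) and -1.06 ± 0.23 (adjusted p = 0.0054), so the rise in KO left the gene far under its neonatal level. Myl9, a regulatory myosin light chain of smooth and embryonic muscle, also moved in both directions (log2 1.29 ± 0.19 and -0.75 ± 0.18), but its gain call was lost without Ctl library 3 of day 7 (adjusted p = 0.055).

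The other 4 leading genes have separate known roles. Lpar3, a receptor for lysophosphatidic acid, rose in KO from 0.378 to 2.12 CPM in controls to 5.58 to 10.4 CPM and fell in Tg from 19.2 to 22.6 CPM to 3.49 to 5.87 CPM (log2 2.89 ± 0.35 and -2.13 ± 0.26). Vash2, a tubulin carboxypeptidase, was at 0.498 to 1.52 CPM in KO against 0.124 to 0.441 CPM, and at 8.66 to 9.63 CPM in Tg against 23.4 to 27.5 CPM (log2 1.83 ± 0.43 and -1.48 ± 0.18). Fras1, a protein of basement membranes, had values of 2.97 ± 0.43 and -1.24 ± 0.26. Slc17a7, a vesicular glutamate transporter, had values of 1.65 ± 0.19 and -1.52 ± 0.22. All 8 leading genes kept both calls when any single library was left out.

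Of the lists, fetal cardiac genes gave 2 members of this class, Tnni1 and Myl9, of 27 tested. Of the same list 5 were higher in both and 2 were lower in both. Over all genes the shares of these classes were 1.31%, 2.92% and 2.94%. The list had 13 higher and 3 lower calls in the loss effect (median 1.06, 0.45 without KO library 8, all genes 0.02) and 5 higher and 7 lower in the gain effect (median -0.39, -0.25 without Ctl library 3 of day 7, all genes 0.00). Over all genes 25.7% were higher and 24.0% lower in the loss effect, and 7.69% higher and 7.07% lower in the gain effect. Timp1, an inhibitor of matrix metalloproteases, was the single gene higher in KO and lower in Tg among 51 extracellular matrix genes (log2 3.73 ± 0.16 and -0.51 ± 0.13). Its gain call ended without Ctl library 1 or 3 of day 7 (adjusted p = 0.061 and 0.071). Eno1, the ubiquitous enolase of glycolysis, was the single gene higher in KO and lower in Tg among 28 glycolysis genes. Of these 28, 8 were higher and 15 lower in KO (median -0.26, 0.11 with total count scaling). In Tg 0 were higher and 8 lower (median -0.12), and 3 genes were lower in both. Eno1 stood at 365, 360, 379 and 387 CPM in KO against 189, 194 and 217 CPM, and at 218, 224, 237 and 230 CPM in Tg against 322, 296 and 308 CPM (log2 0.90 ± 0.07 and -0.44 ± 0.06).

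Genes that were lower in KO and higher in Tg were led by Cdnf, a secreted and endoplasmic reticulum protein related to MANF. It measured 4.29, 4.88, 5.65 and 4.80 CPM in KO against 27.4, 26.4 and 23.2 CPM in controls, and 29, 28.2, 26.2 and 29 CPM in Tg against 3.63, 3.70 and 3.95 CPM. With TMM scaling the adult KO libraries sat just above neonatal controls and the neonatal Tg libraries near adult controls. These levels across ages were not tested and depend on the scaling. Loss and gain values were -2.38 ± 0.10 and 2.90 ± 0.10, and the difference was -5.28 ± 0.14 (SE, adjusted p = 7.9e-13, edgeR).

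Taf1a, a subunit of the factor that selects ribosomal RNA gene promoters for RNA polymerase I, followed the same course at a smaller size. KO libraries held 6.04, 5.98, 8.47 and 6.81 CPM against 18.5, 18 and 15.7 CPM, and Tg libraries 18, 15, 15.8 and 16.3 CPM against 7.19, 7.33 and 7.80 CPM (log2 -1.35 ± 0.12 and 1.13 ± 0.12). Lrrc2, a leucine-rich repeat protein of heart muscle, stood at 184, 159, 167 and 129 CPM in KO against 392, 396 and 289 CPM, and at 67.0, 62.0, 76.5 and 70.1 CPM in Tg against 25.3, 26.9 and 22.4 CPM (log2 -1.17 ± 0.12 and 1.47 ± 0.13). Here the Tg libraries stayed under the adult KO libraries, unlike Cdnf.

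Other leading members cover signalling, transport and the cytoskeleton. Gnb3, a G protein beta subunit, had values of -2.39 ± 0.19 and 1.61 ± 0.20. Tuba8, a tubulin isotype of striated muscle and other tissues, fell in KO from 224 to 291 CPM to 70.5 to 122 CPM and rose in Tg from 34.0 to 43.7 CPM to 66.4 to 103 CPM (log2 -1.37 ± 0.17 and 1.09 ± 0.18). Slc38a3, a glutamine transporter, had values of -0.99 ± 0.12 and 1.52 ± 0.14. Fxyd7 and Lgi1 had the lowest levels of the 8, with Fxyd7 at 0.305 to 1.04 CPM in KO and Lgi1 at 0.141 to 0.467 CPM in all 7 libraries of day 7. The loss call of Fxyd7 ended without Ctl library 7 of day 60 (adjusted p = 0.091) and the gain call of Lgi1 without several single libraries, while Cdnf, Gnb3, Lrrc2, Taf1a, Tuba8 and Slc38a3 kept both calls whichever library was left out.

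Genes of the mature cardiomyocyte followed in this class with smaller gain values. Pln encodes phospholamban, which restrains the calcium pump of the sarcoplasmic reticulum. It fell in KO to 306, 319, 380 and 333 CPM from 1590, 1460 and 1550 CPM and rose in Tg to 834, 876, 809 and 833 CPM from 660, 648 and 645 CPM. Values were -2.20 ± 0.07 and 0.36 ± 0.07 (adjusted p = 6.1e-12 and 0.0029, edgeR), so the fall was much the larger. Ckmt2, the mitochondrial creatine kinase of muscle (log2 -1.36 ± 0.09 and 0.46 ± 0.09), Myoz2, a Z-disc protein that binds calcineurin (-1.12 ± 0.08 and 0.51 ± 0.08), and Fbxo40, a muscle ubiquitin ligase subunit (-0.75 ± 0.11 and 0.48 ± 0.11), shared the pattern. So did Hadhb and Acad11, enzymes of fatty acid oxidation (Hadhb -1.86 ± 0.09 and 0.35 ± 0.09, Acad11 -1.08 ± 0.09 and 0.46 ± 0.09). Hadhb lost its gain call without Ctl library 2 or 3 of day 7 (adjusted p = 0.066 and 0.071). These genes did not stand for the 36 genes of the adult cardiomyocyte list, of which 30 were lower and 3 higher in KO (median -1.30), while 5 were higher and 6 lower in Tg (median 0.00). Over all genes 24.0% were lower and 25.7% higher in KO, and 7.69% higher and 7.07% lower in Tg. The 5 were 2 without Tg library 3. With each age in a fit of its own, 9 were higher and 10 lower in Tg, beside 14.9% and 15.8% of all genes. In those fits 6 were lower in KO and higher in Tg, and 9 were lower in both. With all 14 libraries fitted together, 3 genes of that list were in this class, 5 were lower in both and 1 was higher in both. Over all genes the shares were 1.87%, 2.94% and 2.92%.

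Stress and lineage genes were among the opposite members too. Hspa5, the main chaperone of the endoplasmic reticulum, measured 279, 239, 181 and 270 CPM in KO against 484, 488 and 373 CPM, and 477, 421, 472 and 497 CPM in Tg against 275, 304 and 286 CPM (log2 -0.89 ± 0.13 and 0.69 ± 0.13). Aen, a nuclease induced by p53, had values of -0.55 ± 0.08 and 0.72 ± 0.08. Sox10, the transcription factor of Schwann cells, had values of -1.08 ± 0.28 and 1.13 ± 0.24, and stood at 0.654 to 1.62 CPM in KO against 2.04 to 3.04 CPM and at 2.81 to 4.71 CPM in Tg against 1.41 to 2.14 CPM. It was the only member of 8 tested Schwann and neuronal markers in this class.

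Tmprss11d, a membrane protease of airway epithelium, had the largest gain value of all genes and is named after its values were seen. The Tg libraries held 34274, 30515, 31192 and 34341 counts and the day 7 controls 2, 2 and 1. Its place in the class rests on 1 library, since KO libraries held 1, 1, 2 and 1 counts and their controls 1, 4 and 55, and the loss call ended without control library 7 (adjusted p = 0.17).

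**Figure D2:**
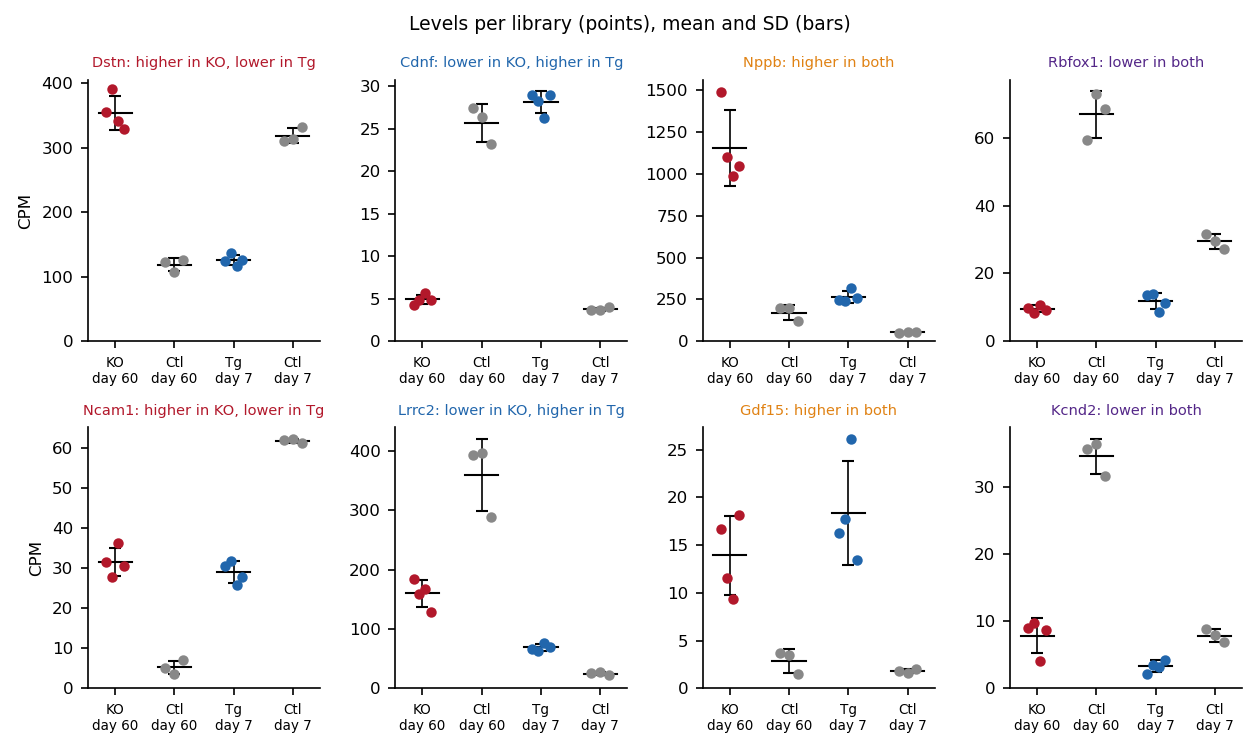
Level (CPM) per library for 2 genes of each class in the KO and Ctl libraries of day 60 and the Tg and Ctl libraries of day 7; points are libraries and bars are the mean and SD of 4 or 3 libraries. Dstn and Ncam1 were higher in KO and lower in Tg, Cdnf and Lrrc2 lower in KO and higher in Tg, Nppb and Gdf15 higher in both, and Rbfox1 and Kcnd2 lower in both.

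Among the genes that were higher in both models was Nppb. It encodes brain natriuretic peptide, which strained ventricles release. It stood at 1490, 1100, 987 and 1050 CPM in KO against 196, 197 and 118 CPM, and at 245, 237, 317 and 256 CPM in Tg against 47.7, 52.9 and 54.4 CPM. Both comparisons were free of overlap, with values of 2.77 ± 0.19 and 2.35 ± 0.18 that did not pass the test of their difference (0.41 ± 0.24, adjusted p = 0.19, edgeR). Ccn2, a matricellular protein also called CTGF, rose from 177 to 191 CPM to 991 to 1590 CPM in KO and from 29.2 to 40.0 CPM to 126 to 201 CPM in Tg (log2 2.75 ± 0.18 and 2.22 ± 0.18). Nppa, atrial natriuretic peptide, rose more with loss (log2 5.24 ± 0.42 and 1.84 ± 0.35), and here the difference was called (adjusted p = 4.8e-05). Nppa is also a marker of atrial tissue, and the summed level of 10 atrial markers, Nppa among them, was 3480 to 4360 CPM in KO against 251 to 340 CPM, and 381 to 671 CPM in Tg against 207 to 662 CPM. Nppa was the only 1 of the 10 called higher in KO.

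Other named genes of the class have known roles in stress signalling, metabolism and the cytoskeleton. Gdf15, a secreted stress cytokine, measured 16.7, 11.5, 9.34 and 18.1 CPM in KO against 3.65, 3.47 and 1.47 CPM, and 16.3, 17.7, 26.1 and 13.4 CPM in Tg against 1.80, 1.63 and 1.98 CPM (log2 2.30 ± 0.32 and 3.35 ± 0.31). Nmrk2, a muscle kinase that makes NAD precursors, rose in both with values of 2.48 ± 0.20 and 2.44 ± 0.18, whose difference did not pass the test (0.04 ± 0.26, adjusted p = 0.92). Nrg1, the growth factor neuregulin, had values of 2.50 ± 0.28 and 1.92 ± 0.26. Krt8 and Krt18, the keratin pair of simple epithelia, rose more in KO (Krt18 5.71 ± 0.45 against 2.31 ± 0.32, Krt8 5.01 ± 0.49 against 2.12 ± 0.28), and both differences were called (adjusted p = 0.00031 and 0.0022). Krt8 lay at or near the level of 3 counts in its day 60 controls (0.0619, 0.0630 and 0.271 CPM), so its fitted loss value depends on the prior count.

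The list of hypertrophy and wall stress genes had 23 of 24 members higher in KO (median 2.04, beside 25.7% of all genes). In Tg 11 were higher (median 0.95, beside 7.69% of all genes). No member was called lower, and these 11 were all in the class higher in both. Ankrd1, a stretch-responsive repressor of the sarcomere and nucleus (log2 2.77 ± 0.16 and 1.12 ± 0.15), and Mybpc2, the fast skeletal myosin-binding protein C (2.70 ± 0.29 and 1.66 ± 0.28), were among them. Xirp2, a protein of intercalated discs, was a member whose gain value was the larger (1.12 ± 0.25 and 2.47 ± 0.26, difference called with adjusted p = 0.0055). Without Ctl library 3 of day 7 the gain calls fell to 8, and without KO library 8 they were 15, in a fit that called 9.87% of all genes higher in Tg.

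Immediate early genes, the first transcription factors induced by growth and stress signals, were higher in Tg in 15 of 21 and in KO in 11 of 21, with 9 in both. Over all genes the shares were 7.69%, 25.7% and 2.92%. All 21 had gain values above 0 and 19 were free of overlap between Tg and control libraries, against 17.8% of all genes. Egr2 rose from 0.434 to 1.32 CPM to 3.36 to 6.87 CPM in KO and from 0.423 to 0.795 CPM to 1.86 to 3.70 CPM in Tg (log2 2.53 ± 0.35 and 2.07 ± 0.35). Egr1 had values of 1.44 ± 0.23 and 1.35 ± 0.22 and Egr3 of 1.83 ± 0.33 and 1.57 ± 0.27. Handling at dissection also induces these genes, and whether it differed between groups is not known here. Without Ctl library 3 of day 7 the list had 10 gain calls and 6 members in the class.

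The promoters of these stress genes were read from the RefSeq table of promoters on GRCm38.p6, which covers 11682 of the genes tested with 300 bases each, from 250 before the start. Of the 20 immediate early and wall stress genes that were higher in both, 16 had a promoter, of which 1 held a CArG box (the motif of serum response factor), 6 the M-CAT element CATTCC (the motif of TEAD factors) and 0 the cyclic AMP response element TGACGTCA, searched on both strands. Over all genes the shares were 1.58%, 14.9% and 3.36%, and over the 359 genes higher in both with a promoter they were 1.39%, 17.5% and 5.29%. In the class higher in KO and lower in Tg the CArG box was in 6 of 167 promoters (3.59%). A stretch of the Egr2 promoter with its CArG box in capitals, at chr10:67537454-67537543 on the plus strand, and a stretch of the Mybpc2 promoter with its M-CAT element in capitals in the reverse sense, at chr7:44524684-44524773 on the minus strand, are given as the examples behind these counts.
Egr2: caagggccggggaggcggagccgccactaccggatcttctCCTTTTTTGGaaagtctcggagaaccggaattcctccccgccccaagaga
Mybpc2: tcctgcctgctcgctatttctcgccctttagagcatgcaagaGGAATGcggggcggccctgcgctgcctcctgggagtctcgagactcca

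Targets of p53 and genes of the integrated and endoplasmic reticulum stress responses were called higher more often than lower in Tg, 11 of 22 against 0 and 13 of 30 against 1, beside backgrounds of 7.69% and 7.07%. Gdf15 and Sesn2 are members of both lists. In KO the p53 list had 11 of 22 higher and 5 lower and the stress response list 12 of 30 higher and 10 lower. Over all genes 25.7% were higher and 24.0% lower in KO. The loss medians were 0.41 and 0.04, the second from -0.16 to 0.14 with a library left out. Summed levels in KO were 1400 to 1790 CPM against 1680 to 2230 CPM for p53 targets. For the stress response list they were 1570 to 2010 CPM against 2260 to 2840 CPM, and 1950 to 2180 CPM in Tg against 1580 to 1630 CPM. The p53 list put 5 members in the class higher in both and 2 in the class lower in KO and higher in Tg, Aen among them. The stress response list put 4 in each, Hspa5 among the opposite, and 1 in the class lower in both. Over all genes these classes held 2.92%, 1.87% and 2.94%. In loss minus gain the stress response list had 12 genes lower and 4 higher (5 and 9 with total count scaling). Without Ctl library 1 of day 7 each list had 7 higher calls in Tg. Btg2, an antiproliferative p53 target, rose from 30.7 to 38.8 CPM to 80.8 to 122 CPM in KO and from 29.7 to 31.1 CPM to 75.6 to 126 CPM in Tg (log2 1.59 ± 0.16 and 1.70 ± 0.16). Phlda3, a p53-induced inhibitor of Akt, had values of 1.78 ± 0.16 and 0.86 ± 0.15, and Atf4, the central factor of the integrated stress response, of 0.51 ± 0.10 and 0.66 ± 0.10.

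Macrophage markers were higher in both as a list. Of 17 markers, 16 were called higher in KO (25.7% of all genes) and 9 in Tg (7.69% of all genes), with none lower and median values of 0.88 and 0.68. Their summed level was 959 to 1310 CPM in KO against 467 to 734 CPM, and 219 to 279 CPM in Tg against 138 to 172 CPM. C1qa, a complement component made by tissue macrophages, had values of 0.88 ± 0.14 and 0.83 ± 0.14, and Fcgr1, a high-affinity receptor for immunoglobulin G, of 1.69 ± 0.22 and 1.09 ± 0.23. Without Tg library 1 the gain calls were 6. How much of the other changes comes with these cells was not tested.

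Genes that were lower in both models included regulators and channels of the mature myocyte. Rbfox1 encodes a splicing factor of heart, muscle and brain. It fell in KO to 9.83, 8.33, 10.8 and 9.17 CPM from 59.5, 73.0 and 68.7 CPM and in Tg to 13.5, 13.8, 8.66 and 11.3 CPM from 31.7, 29.7 and 27.3 CPM. Groups were apart in both, with values of -2.81 ± 0.14 and -1.32 ± 0.13 whose difference was called (adjusted p = 1.7e-05, edgeR). Kcnd2, the channel of the fast transient outward potassium current, stood at 9.04, 9.68, 4.07 and 8.67 CPM in KO against 35.7, 36.4 and 31.6 CPM, and at 2.15, 3.52, 3.24 and 4.27 CPM in Tg against 8.77, 7.92 and 6.92 CPM (log2 -2.14 ± 0.22 and -1.25 ± 0.24). Kcnj2, the main channel of the inward rectifier current, had values of -1.31 ± 0.16 and -1.13 ± 0.16 whose difference did not pass the test (-0.18 ± 0.23, adjusted p = 0.58).

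Clcn1, the chloride channel whose mis-splicing causes myotonia in myotonic dystrophy, measured 0.784 to 1.12 CPM in KO against 8.30 to 13.1 CPM, and 0.647 to 1.20 CPM in Tg against 2.35 to 2.71 CPM (log2 -3.54 ± 0.21 and -1.48 ± 0.22, difference called with adjusted p = 8.6e-05). Cacna1s, the calcium channel of skeletal muscle, fell far more with loss (-5.21 ± 0.19 and -0.91 ± 0.22), and its gain call ended without Ctl library 3 of day 7 (adjusted p = 0.072). Hcn4, the pacemaker channel, had the larger fall with gain (-0.82 ± 0.20 and -1.74 ± 0.20, difference 0.92 ± 0.29, adjusted p = 0.019), and that difference was lost without Ctl library 5 of day 60 (adjusted p = 0.051) or Ctl library 2 of day 7 (0.060). The list of 32 cardiac ion channels had 18 lower and 5 higher in KO and 8 lower and 2 higher in Tg, with 6 lower in both. Over all genes 24.0% were lower and 25.7% higher in KO, 7.07% lower and 7.69% higher in Tg, and 2.94% lower in both. The gain median was -0.39, and -0.25 without Tg library 3.

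The other leading members were spread over transport and metabolism. Aqp4, a water channel (log2 -2.03 ± 0.33 and -2.17 ± 0.29), Slc22a3, an organic cation transporter (-2.33 ± 0.25 and -1.57 ± 0.37), and Wnk2, a kinase of ion transport (-2.05 ± 0.30 and -1.44 ± 0.32), fell in both. Smco1, a single-pass membrane protein of muscle (-2.61 ± 0.19 and -1.42 ± 0.20), Efnb3, a membrane-bound ephrin (-2.88 ± 0.27 and -1.41 ± 0.25), Adhfe1, a mitochondrial dehydrogenase (-1.83 ± 0.11 and -1.40 ± 0.12), and Cox6b2, a testis form of a cytochrome oxidase subunit (-1.70 ± 0.22 and -1.43 ± 0.17), did so as well. Slc22a3 lost its gain call without Ctl library 2 of day 7 (adjusted p = 0.064). Atp2a2, the calcium pump that phospholamban restrains, was in this class while Pln was opposite: it stood at 4250, 3910, 4680 and 4000 CPM in KO against 15500, 16300 and 16500 CPM, and at 4960, 5480, 4740 and 5370 CPM in Tg against 7270, 6460 and 6300 CPM (log2 -1.94 ± 0.08 and -0.38 ± 0.08).

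Genes of fuel metabolism fell widely with loss and in part with gain. Over all genes 24.0% were lower in KO, 7.07% lower and 7.69% higher in Tg, and 2.94% lower in both. Of 39 genes of fatty acid uptake and oxidation, 35 were lower in KO (median -1.52) and 19 were lower and 2 higher in Tg (median -0.28), with 18 lower in both. Acot1, a cytosolic thioesterase controlled by PPAR alpha, measured 1.20 to 2.26 CPM in KO against 13.5 to 17.0 CPM, and 26.4 to 27.9 CPM in Tg against 53.4 to 68.9 CPM (log2 -3.17 ± 0.15 and -1.17 ± 0.11). Ppara itself, the receptor that drives these genes, had values of -1.52 ± 0.12 and -0.63 ± 0.12, and Thrb, a thyroid hormone receptor, of -0.89 ± 0.09 and -0.51 ± 0.10. All 22 citric acid cycle genes were lower in KO (median -1.04) and 9 were lower in Tg (median -0.16), among them Idh2 (-1.39 ± 0.06 and -0.25 ± 0.06) and Mdh2 (-0.74 ± 0.07 and -0.43 ± 0.07). Without Ctl library 1 of day 7 the gain calls of these lists were 11 and 6.

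Respiratory chain genes were lower with loss throughout and called less often with gain. All 53 nuclear-encoded subunits were lower in KO (median -0.94), 8 were lower in Tg (median -0.13), and all 53 were called lower in loss minus gain, 39 with total count scaling. The shares over all genes were 24.0%, 7.07% and 19.4%. The gain count was 2 without Ctl library 3 of day 7 and 14 without KO library 8. Cox7a1, a cytochrome oxidase subunit of striated muscle, fell in KO to 123 to 147 CPM from 487 to 622 CPM (log2 -2.06 ± 0.08) and was at 104 to 115 CPM in Tg against 95.6 to 105 CPM, with a difference of -2.20 ± 0.12 (adjusted p = 4.6e-09). Of the 13 mitochondrially encoded genes 10 were lower in KO (median -0.93), while in Tg 10 of 13 lay above 0 and the median was 0.04. The calls in Tg varied with the fit. DESeq2 called 1 lower, a fit of each age alone called 3 higher and 1 lower, and edgeR called 2 higher without KO library 6 and 0 with all 14 libraries. Their share of all counts was 18.7% ± 1.7 (SD, n = 4) in KO and 26.7% ± 1.7 (n = 3) in controls (exact two-sided permutation p = 0.0571, the smallest that 4 against 3 can give, 0.114 adjusted over 2 tests). In Tg it was 15.9% ± 0.3 against 15.2% ± 0.4 (exact permutation p = 0.114, adjusted 0.114).

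**Figure D3:**
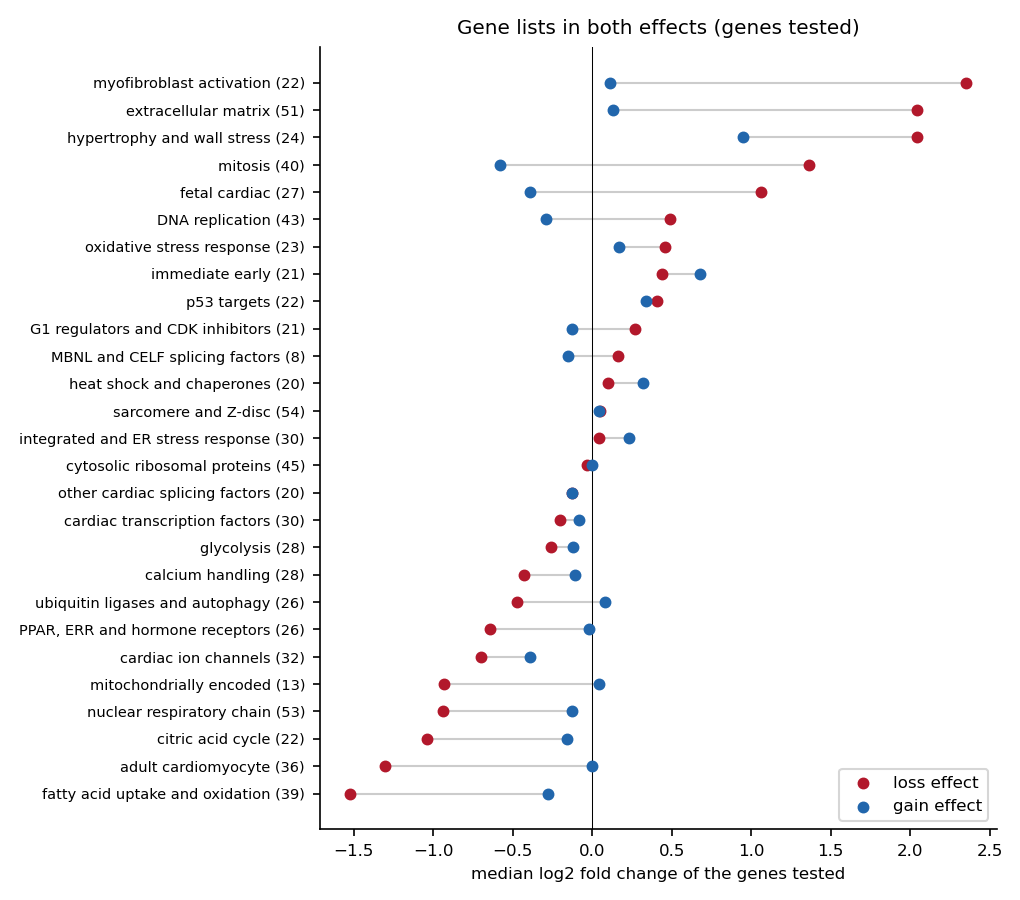
Median log2 fold change of the genes tested in each of 27 gene lists (number of genes in brackets), for the loss effect (red) and the gain effect (blue). Extracellular matrix and fatty acid oxidation genes had large loss and small gain medians, while mitosis genes had medians of 1.36 and -0.58.

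Extracellular matrix genes were higher with loss, and most of them differed between the models. Of 51 genes, 49 were higher in KO (median 2.04) against 5 in Tg (median 0.13), and 47 were called higher in loss minus gain. Over all genes the shares were 25.7%, 7.69% and 19.2%, so in the fit of all 14 libraries the 5 in Tg were near the share over all genes. The gain count was 2 without Tg library 1. It was 21 with each age in a fit of its own, where 14.9% of all genes were called higher in Tg. Without overlap between Tg and control libraries, 19 of the 51 were higher and 3 lower, beside 17.8% and 18.8% of all genes. Col1a1, a chain of type I collagen, rose in KO to 753 to 1220 CPM from 133 to 261 CPM (log2 2.49 ± 0.21), while Tg and control libraries of day 7 ranged from 1700 to 2610 CPM. The 22 genes of myofibroblast activation gave 19 higher in KO (median 2.35) and 5 in Tg (median 0.11), where 7.69% of all genes were called higher. Without Ctl library 1 of day 7 the 5 were 3, and the median was 0.05 without Tg library 1 and 0.18 without Tg library 4. Fibroblast markers were higher in KO in 9 of 12, beside 25.7% of all genes. Their sum was 6170 to 6620 CPM against 3970 to 4430 CPM, and 6090 to 7140 CPM in Tg against 4910 to 5680 CPM. Cardiomyocyte markers were lower in KO in 8 of 10, beside 24.0% of all genes. Their sum was 48700 to 58000 CPM against 80700 to 86400 CPM, and 49000 to 55400 CPM in Tg against 49600 to 51200 CPM. The part of these shifts in the gene results was not tested.

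Genes called in loss minus gain without answering both models were mostly of the KO alone. Tnnt3, fast skeletal troponin T, measured 46.2, 55.2, 44.8 and 19.7 CPM in KO against 0.0619, 0.567 and 0.489 CPM, with 0.640 to 1.06 CPM in Tg and 0.423 to 1.11 CPM in its controls. Cxcr6, a chemokine receptor, stood at 35.1, 32.1, 19 and 33.1 CPM in KO, and its other 10 libraries lay between 0.0352 and 0.163 CPM, about the level of 3 counts, so no fold is given. Dusp26, a phosphatase, was at 8.22 to 16.2 CPM in KO against 0 to 0.252 CPM, and at 0.387 to 0.845 CPM in the 7 libraries of day 7. In the other direction Kcnv2, a silent potassium channel subunit, was at 0.554 to 0.841 CPM in KO against 15.2 to 18.4 CPM (log2 -4.63 ± 0.19), with 0.0704 to 0.252 CPM at day 7. Itgb6, an epithelial integrin chain, fell in KO to 0.393 to 0.841 CPM from 8.48 to 10.4 CPM (log2 -4.11 ± 0.17) and lay between 8.58 and 9.78 CPM in the 7 libraries of day 7. Adjusted p-values for loss minus gain were 5.2e-06 for Tnnt3, 4.3e-05 for Cxcr6, 1.3e-06 for Dusp26, 4.1e-07 for Kcnv2 and 4.2e-09 for Itgb6.

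Mitosis genes had opposite medians in the models, but the number called varied with single libraries and with the method. Of 40 genes, 32 were called higher and 2 lower in KO (median 1.36), and 37 were called higher in loss minus gain. Over all genes 25.7% were higher and 24.0% lower in KO, and 19.2% were higher in loss minus gain. The 32 were 13 without Ctl library 5 of day 60 and 6 with limma-voom, and the median was 0.90 without KO library 9. In Tg all 40 lay below 0 (median -0.58) and all 40 were free of overlap with the controls, against 18.8% of all genes lower without overlap, yet 2 were called, 15 with limma-voom and 0 without Tg library 1. Their summed level was 831, 783, 779 and 842 CPM in Tg against 1140, 1200 and 1210 CPM, and 225, 196, 84.5 and 399 CPM in KO against 106, 110 and 142 CPM, where KO library 8 lay below its controls. In KO 1 of 40 was higher without overlap, against 22.9% of all genes. Without KO library 8 the calls were 38 higher in KO, 26 lower in Tg (10.1% of all genes) and 24 in the class higher in KO and lower in Tg, where it was 0 with that library. With each age in a fit of its own, all 40 were lower in Tg (15.8% of all genes), 12 were higher in KO and 12 were opposite. Mki67, a proliferation antigen, stood at 22, 17.3, 3.36 and 31.8 CPM in KO against 5.70, 5.80 and 10.6 CPM, and at 76.6, 69.3, 59.6 and 77.9 CPM in Tg against 97.4, 107 and 109 CPM. DNA replication genes had 33 of 43 lower without overlap in Tg and 2 called, 14 without KO library 8 and 31 in the fit of day 7 alone.

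**Figure D4:**
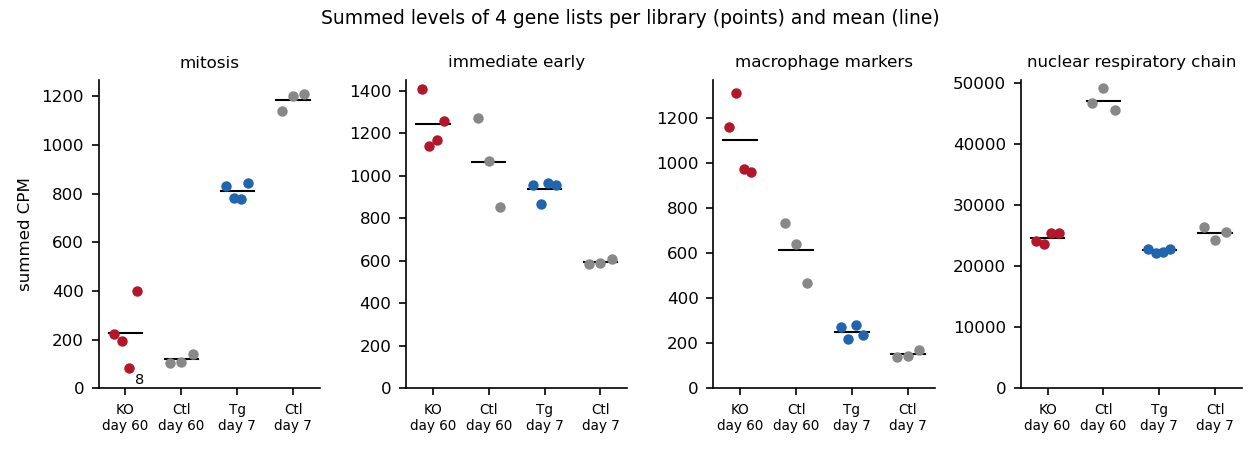
Summed CPM of all members of 4 lists, tested or not, per library (points) with the group mean (line), for KO and Ctl at day 60 and Tg and Ctl at day 7. Library 8 of KO is marked in the mitosis panel. Mitosis genes were at 779 to 842 CPM in Tg against 1140 to 1210 CPM, macrophage markers were higher in both models, and the respiratory chain was low in KO and at 22200 to 22900 CPM in Tg against 24300 to 26500 CPM.

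Libraries outside the 14 gave independent values for the loss side of the classes. The series holds no further Tg libraries, so the gain side has no such repeat. At 7 days after knockout, 5 libraries labelled KO were compared with 4 controls of the same interval at day 60. Over the 15021 genes tested there as well, 26.0% were called higher and 24.5% lower. Of the class higher in KO and lower in Tg, 139 of 212 were higher and 0 lower (median 0.64), and of the class lower in KO and higher in Tg, 222 of 305 were lower and 2 higher (median -0.69). Of genes higher in both, 381 of 477 were higher and 1 lower, and of genes lower in both, 389 of 474 were lower and 1 higher. Genes called in the loss effect only gave 2460 of 3396 higher (72.4%) and 2313 of 3079 lower (75.1%). Beside these stand 65.6% and 72.8% for the opposite classes and 79.9% and 82.1% for the alike classes. The repeat thus bears on the loss call and not on whether genes moved opposite or alike. Genes called in the gain effect only, which had no loss call to repeat, gave 53 higher and 52 lower of 421 where gain was higher, and 44 higher and 57 lower of 395 where gain was lower.

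Opposite and alike genes differed in their course through normal maturation, a difference that was not tested. Maturation was measured as the 4 controls of the 7-day interval at day 60 against 4 controls of postnatal day 1, in a fit of these 8 libraries, which called 68.2% of 15345 genes. Among the 15241 genes also tested in the 14 libraries, 33.4% were called higher with age and 34.8% lower (median -0.03). These day 60 controls also serve the 7-day comparison, so the 2 comparisons are not set against each other. Of genes higher in KO and lower in Tg, 184 of 216 fell with age and 11 rose (median -1.46). Of genes lower in KO and higher in Tg, 273 of 304 rose with age and 6 fell (median 1.24). Genes higher in both had 218 of 463 rising and 119 falling (median 0.27), and genes lower in both 255 of 480 rising and 107 falling (median 0.40). With total count scaling 2352 of all 15345 genes were called rising and 10015 falling (median -0.68). The counts for the opposite classes were then 204 falling against 5 rising and 193 rising against 38 falling. The alike classes changed direction, to 115 rising against 244 falling (median -0.38) and 139 against 226 (median -0.25). Both of these medians stayed above that of all genes.

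Single genes show the pattern in size. From day 1 to day 60 Tnni1 fell by 11.77 on the log2 scale, Ncam1 by 4.80 and Dstn by 1.53, all higher in KO and lower in Tg. Cdnf rose by 3.91, Lrrc2 by 4.44 and Tuba8 by 5.78, all lower in KO and higher in Tg. Slc17a7 was an exception among the leading genes, since it rose by 2.38 with age but was higher in KO and lower in Tg. Genes called in the loss effect only leaned the same way at smaller shares, with 1889 of 3310 genes higher in KO falling with age (57.1%) and 2043 of 3103 genes lower in KO rising (65.8%). So did those called in the gain effect only, with 242 of 424 genes higher in Tg rising (57.1%) and 312 of 452 genes lower in Tg falling (69.0%).

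**Figure D5:**
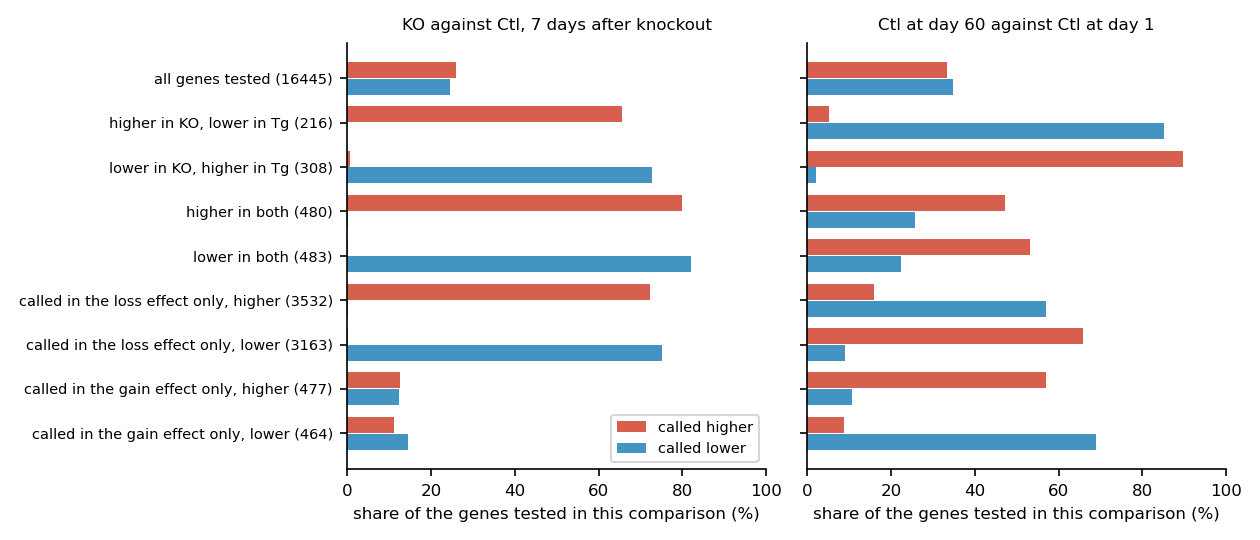
Share of each class's genes called higher (red) or lower (blue), in KO against Ctl 7 days after knockout (left) and in Ctl at day 60 against Ctl at day 1 (right), as a percentage of the genes tested in that comparison; numbers in brackets are genes of the class. In maturation 85.2% of the genes higher in KO and lower in Tg were lower and 89.8% of the genes lower in KO and higher in Tg were higher.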

How the data were processed

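The deposited table held read counts per gene that the authors had made, 55487 genes in 27 libraries, whole numbers that were not normalized. Per the labels' protocols, RNA was taken with TRIzol and a column kit and sequenced on BGI's DNBseq. The build GRCm38 (mm10) and the tools STAR, featureCounts, Salmon and DESeq2 appear, per the submitters' processing notes, without role or version, and the strand setting is not given in the sources used here, so reads of overlapping genes on opposite strands may not be told apart. Of the gene IDs 55227 matched GENCODE M21 and 260, with 0.0021% to 0.008% of counts, did not.

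Genes were kept by edgeR's filterByExpr and scaled by TMM, and the 14 libraries were fitted by group with edgeR 4.0.16 in R 4.3.3 (glmQLFit, glmQLFTest, Benjamini-Hochberg over all genes tested). The contrasts were loss, gain and loss minus gain. Day 60 controls against day 1 controls, and KO against Ctl at 7 days, had fits of their own. Alternatives used total count scaling, DESeq2 1.42.0, limma 3.58.1 (voom), other filters, thresholds and sets of libraries, a sex covariate from Xist and Y-linked counts (both sexes were in every group) and each library left out. The script was tested on simulated data. No 2 replicates agreed within sampling noise (chi-square per degree of freedom 6.34 to 46.4 over 18 pairs).

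Genes named were the MBNL and CELF genes and Esr1, the 8 of each class with the largest smaller-of-both log2 value (at least 5 CPM in a group, no overlap, a regular symbol), up to 3 of each list per class, and the 4 largest differences per direction among genes of no class, of which those with stable calls were preferred, a choice made after their values were seen. Mki67, Ryr2, Egr1 and Tmprss11d were likewise chosen or kept after values were seen. The members and the 40 gene lists were chosen with earlier results of these data known.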

Additional observations from a re-analysis of the deposited data

Results flagged for a closer look

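In 170 groups of 4 libraries tested, 6 had a library far from the other 3 by Dixon's criterion, which chance flags in about 1 in 20 groups. In KO library 8, Wnk2 stood at 110.0 CPM against 34.7 to 41.7 CPM in the other KO libraries, Phlda3 at 59.7 CPM against 37.0 to 39.7 CPM, and Ryr2, the cardiac ryanodine receptor, at 410.0 CPM against 235 to 249 CPM. Tmprss11d in the same library was at 0.083 CPM against 0.0421 to 0.0461 CPM, which is 2 counts against 1 in each of the others. In Tg library 1, Myoz2 stood at 505 CPM against 443 to 448 CPM in the other Tg libraries. In Tg library 3, Phlda3 stood at 80.8 CPM against 64.8 to 66.4 CPM.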

How the results depend on the processing

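Counts of calls depended on the setting more than directions did. Of 187 called values of the 84 named genes, 155 kept sign and call under all alternatives, 13 lost the call with a library left out and 1 changed sign (Mbnl1 loss, 0.03 under total count scaling). The Celf2 loss value, not called, was 0.26 under that scaling and 0.07 with the replicate block. The 2 opposite classes held 448 and 135 genes under total count scaling. With each age in a fit of its own, gain calls were 4878, the opposite classes 397 and 483 and the class lower in both 761. With all 27 libraries in a single fit, gain calls were 973 and the 4 classes held 62, 100, 176 and 153. At 2-fold or more, loss, gain and difference calls were 2603, 477 and 2442 and the classes 17, 32, 69 and 60. At an adjusted p under 0.01, gain calls were 1128 and the classes 71, 122, 214 and 211. For the mitochondrially encoded share of counts, loss gave -14.15 percentage points relative to nuclear counts only. Leaving out 1 library gave 7138 to 8679 loss, 1358 to 3278 gain and 5566 to 7046 difference calls, classes of 103 to 380, 176 to 410, 269 to 611 and 303 to 701, 6685 to 7610 calls at 7 days, 9949 to 10873 in maturation, and mitochondrial share differences of -8.99 to -7.37 for loss and 0.59 to 0.95 for gain. The gain count fell most without Tg library 3 (1618) and Ctl libraries 1 (1489), 2 (1358) and 3 (1573) of day 7. The cause of these shifts was not tested. Deviations from group means of equally numbered libraries had correlations of r = 0.089 and -0.226 at day 60 and -0.189, -0.040 and 0.050 at day 7. With groups of 3 or 4 libraries these values cannot settle whether the numbers pair samples. With the replicate block, loss, gain and difference calls were 7697, 2791 and 6081, the classes 286, 288, 538 and 640, and calls 6589 at 7 days and 10092 in maturation.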
